A study of Mus musculus with 6 samples.

Results

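PU.1 and C/EBPβ binding was compared over the autosomes of mouse macrophages, taking every region that the authors listed for each factor by ChIP-seq, that is, chromatin immunoprecipitation followed by sequencing. A PU.1 region and a C/EBPβ region were counted as bound at the same place where they shared at least 1 bp. The comparison held 45485 PU.1 regions and 24024 C/EBPβ regions on the 19 autosomes, 69509 in all, out of 70777 on all chromosomes and 163892 in the main lists of the 6 libraries of the series. The overlap rule gave 13080 PU.1 regions with C/EBPβ and 32405 without, and 12856 C/EBPβ regions with PU.1 and 11168 without.

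Both libraries, and the macrophage library of acetylated histone H3 lysine 9 (H3K9Ace), came from thioglycollate-elicited peritoneal macrophages of male C57BL/6 mice. These primary cells were washed from the abdominal cavity 3 days after an injection of 1 ml of 3% thioglycollate and kept adherent for 24 h, with at least 4 animals pooled for each sequencing run. The cells carried no transgene or further treatment by the labels. Differentiated 3T3-L1 adipocytes, a mouse fibroblast-derived line, supplied the H3K9Ace and PPARγ lists set beside them below. The lists hold positions only, so the cell type could not be checked against marker genes, and fewer cells with a factor bound and weaker binding in each cell cannot be told apart. The titles and the antibody field name PU.1 and C/EBPβ, whereas the free-text description names PPARγ for every library, and the titles were followed. Each group is 1 library without a replicate and the read totals are unknown. Differences between classes of regions are therefore given as descriptions of these libraries, without a test. The 95% intervals cover counting error only and treat neighbouring regions as independent.

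PU.1 is an ETS-family factor needed for myeloid and B cell development. It can bind DNA wrapped in nucleosomes and is present at a large part of the enhancers of macrophages. C/EBPβ is a leucine-zipper factor that binds DNA as a dimer and acts in myeloid cells and in fat cell differentiation. H3K9Ace marks active promoters and enhancers. The lists come from separate precipitations of pooled cells, so they show that both factors were found at a place and not that they sat on the same DNA molecule at the same time.

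More than 1 in 2 C/EBPβ regions lay on PU.1, while most PU.1 regions lay apart from C/EBPβ. PU.1 overlapped C/EBPβ at 28.8% of its regions (95% Wilson interval 28.3 to 29.2), and C/EBPβ overlapped PU.1 at 53.5% of its regions (52.9 to 54.1). On single autosomes the share of PU.1 regions with C/EBPβ lay between 26.0% on chromosome 12 and 32.3% on chromosome 19. The share of C/EBPβ regions with PU.1 lay between 49.4% on chromosome 13 and 57.2% on chromosome 16. The PU.1 list held 1.74 to 2.04 regions for each C/EBPβ region of the same autosome, so a share of the PU.1 list and a share of the C/EBPβ list are not on a common footing. With the PU.1 list cut to its 24024 widest regions, as many as the C/EBPβ list has, the shares were 41.5% for PU.1 and 41.6% for C/EBPβ. Lists of equal length give nearly equal shares by construction where most places hold 1 region of each factor. The cut also keeps the wider PU.1 regions, in which C/EBPβ was more frequent, as given below.

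Overlapping regions formed 12644 separate places with both factors. Of these, 12061 (95.4%) consisted of 1 region of each factor, 429 held more than 1 PU.1 region and 209 more than 1 C/EBPβ region. Counting each such place once beside the regions that lay alone gave 56217 bound places. Both factors were at 22.5% of them, PU.1 alone at 57.6% and C/EBPβ alone at 19.9%.

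Where the factors met, their regions lay nearly on top of each other. In 13292 overlapping pairs the median overlap was 238 bp (quartiles 190 and 303 bp), which covered a median of 98.3% of the shorter region (quartiles 86.5% and 100%). In 22.0% of the pairs the PU.1 region lay wholly inside the C/EBPβ region, and in 23.9% the C/EBPβ region lay wholly inside the PU.1 region. Overlaps of less than 50% of the shorter region made up 624 pairs, 4.70%. Neither factor had the wider region as a rule. PU.1 was the wider of the pair in 49.5% of cases, and the median widths in the pairs were 307 bp for PU.1 and 312 bp for C/EBPβ.

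Centres of the overlapping regions were a median of 46.5 bp apart (exact binomial interval of the median 45.5 to 47.5 bp, quartiles 21 and 92.5 bp). They lay within 25 bp in 29.8% of the pairs, within 50 bp in 52.9%, within 100 bp in 77.7% and within 200 bp in 92.8%. The C/EBPβ centre fell inside the PU.1 region in 89.7% of the pairs, and the PU.1 centre inside the C/EBPβ region in 91.0%. On single autosomes the median lay between 43 bp on chromosome 8 and 52 bp on chromosome 15. The signed offset had a median of 0 bp, and the C/EBPβ centre was at the higher coordinate in 6617 pairs, 49.8%. That balance runs along the chromosome and says nothing of the strand of a gene or a motif, which the lists do not give.

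**Figure D1:**
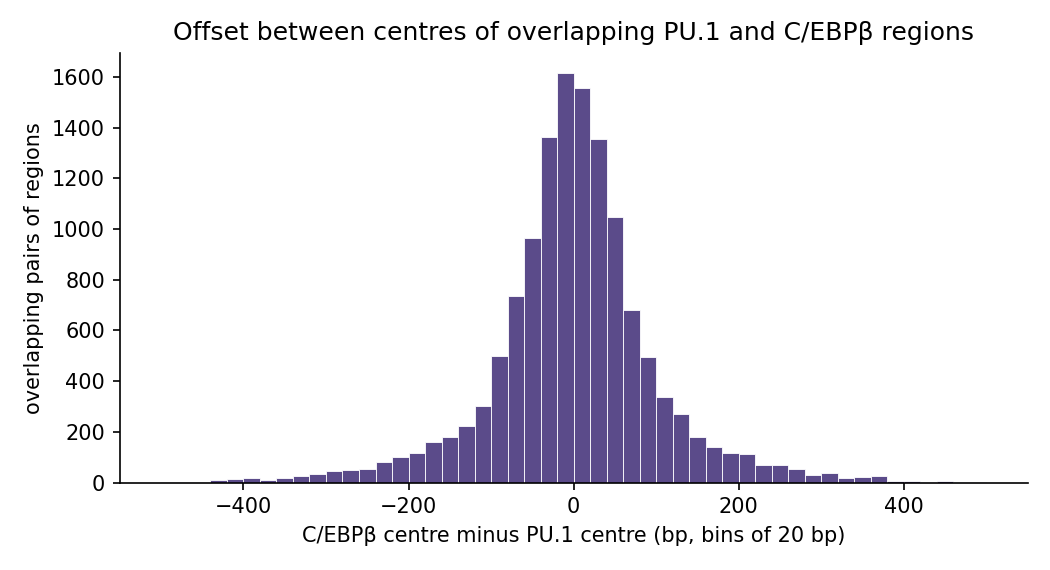
Offset between centres in overlapping pairs of macrophage PU.1 and C/EBPβ regions on the autosomes (x axis, C/EBPβ centre minus PU.1 centre in bp, bins of 20 bp, drawn from -500 to 500 bp; y axis, number of pairs). The bars rise to a single peak at 0 and fall off evenly on both sides, with 77.7% of the 13292 pairs within 100 bp.

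The offset grew with the size of the regions, as does the furthest offset at which a pair would still touch. Over all pairs the offset had a median of 14.9% of that limit. This share is not given by width bin. With pairs ranked by summed width into 4 bins of nearly equal size, the narrowest bin (291 to 519 bp) had a median offset of 32 bp. The following bins had 39 bp and 54 bp, and the widest bin (798 to 2054 bp) had 81.5 bp. The median share of the shorter region covered was 95.5% in the narrowest bin and between 99.1% and 99.4% in the others. Pairs whose PU.1 region overlapped macrophage H3K9Ace had a median offset of 53.5 bp (51.5 to 55), against 39.5 bp (38.5 to 41) in pairs without the mark. Acetylated regions were also wider, as given below, and the part of width in that difference was not tested.

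Regions where the factors met were wider than regions of the same list where they did not. PU.1 regions with C/EBPβ had a median width of 305 bp (302 to 308, quartiles 237 and 399), against 221 bp (220 to 222, quartiles 190 and 282) for PU.1 regions without it. C/EBPβ regions with PU.1 had a median of 308 bp (306 to 311, quartiles 240 and 401), against 243.5 bp (242 to 245, quartiles 199 and 310) without PU.1. With the partner present the lists had nearly the same median. Without the partner, PU.1 regions were the narrower on all 19 autosomes, by 16 to 29.5 bp. The excess with the partner was 84 bp for PU.1, 69 to 96 bp on single autosomes, and 64.5 bp for C/EBPβ, 49 to 81.5 bp on single autosomes. The PU.1 excess was 49 bp with the PU.1 list cut to the length of the C/EBPβ list, and the C/EBPβ excess was 39 bp in the widest 50% of each list.

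**Figure D2:**
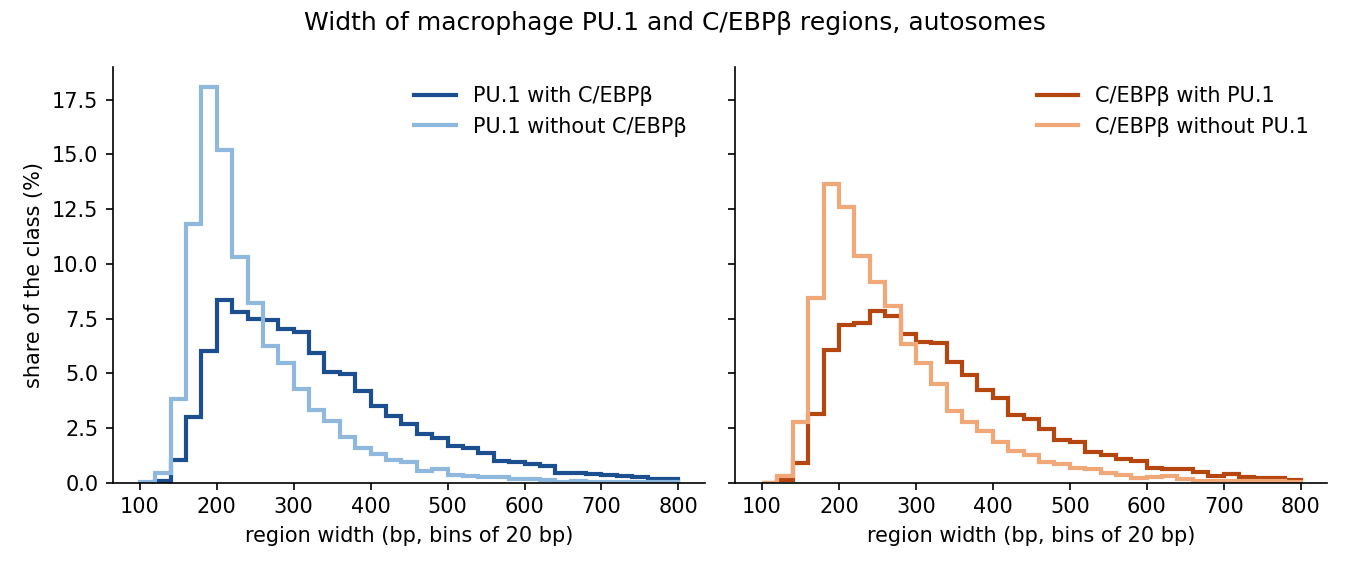
Width of macrophage PU.1 regions (left) and C/EBPβ regions (right) with and without the other factor (x axis, width in bp in bins of 20 bp, drawn from 100 to 800 bp; y axis, percent of the class). In both panels the class without the partner is crowded around 200 bp, while the class with the partner is flatter and reaches further to the right, with medians of 305 and 308 bp against 221 and 243.5 bp.

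Seen from the width, the partner became more frequent over 4 width bins of equal size, formed within each list. Of the narrowest bin of PU.1 regions (119 to 197 bp) 10.4% had C/EBPβ, followed by 19.7% and 32.2%, and by 52.7% (51.8 to 53.6) in the widest bin (317 to 1220 bp). For C/EBPβ the share with PU.1 was 34.3% in the narrowest bin (121 to 215 bp), then 47.6% and 59.5%, and 72.6% (71.5 to 73.8) in the widest (362 to 1254 bp). A wider region meets another more easily by its size. Under a rule that ignores width, centres within 200 bp were counted as shared. It gave 27.1% of PU.1 regions with C/EBPβ and 51.0% of C/EBPβ regions with PU.1, with width excesses of 82 bp and 59 bp. Most regions kept their class under that rule, since 92.8% of the overlapping pairs had centres within 200 bp. The part of size in the width excess was not tested. The lists carry no score, so width could not be set beside the strength of binding.

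The widest regions were of both kinds. The widest PU.1 region with C/EBPβ lay on chromosome 7 at 30128262 to 30129482 (build mm8). It spanned 1220 bp, overlapped 3 C/EBPβ regions between 30128222 and 30129411 and lay in macrophage H3K9Ace without the adipocyte mark. The next, on chromosome 13 at 113560216 to 113561404 (1188 bp), overlapped 1 C/EBPβ region and also carried macrophage H3K9Ace and a region of the final macrophage PPARγ list.

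Among C/EBPβ regions with PU.1 the widest lay on chromosome 5 at 122405997 to 122407250 and spanned 1254 bp. It met 3 PU.1 regions between 122406167 and 122407443 and was acetylated in both cell types. The next, on chromosome 19 at 46556654 to 46557885 (1232 bp), met 1 PU.1 region and was likewise acetylated in both.

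Regions of large width occurred without the partner too. The widest PU.1 region without C/EBPβ lay on chromosome 2 at 127699970 to 127701076. It spanned 1106 bp, carried macrophage H3K9Ace and had the nearest C/EBPβ centre 22.9 kb away. The next, on chromosome 10 at 5744357 to 5745405 (1048 bp), lay 0.796 kb from the nearest macrophage H3K9Ace region and 11.0 kb from C/EBPβ. For C/EBPβ without PU.1 the widest lay on chromosome 6 at 48965169 to 48966412, spanned 1244 bp and was acetylated in macrophages, with a PU.1 centre 0.884 kb away. The next, on chromosome 13 at 52997542 to 52998479 (938 bp), was acetylated in both cell types and lay 2.70 kb from the nearest PU.1 centre. Gene names are not given for these places, since no annotation in build mm8 was used here.

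Within each list, regions that carried the partner were more closely spaced. Another PU.1 centre lay within 5 kb of 69.3% of PU.1 regions with C/EBPβ (9064 of 13080, 68.5 to 70.1), against 53.9% of those without (17459 of 32405, 53.3 to 54.4). Over all PU.1 regions the share was 58.3%. The median distance to the nearest other PU.1 centre was 2.34 kb with C/EBPβ and 4.18 kb without. Another C/EBPβ centre lay within 5 kb of 52.7% of C/EBPβ regions with PU.1 (6780 of 12856, 51.9 to 53.6), against 44.7% of those without (4992 of 11168, 43.8 to 45.6), and the share over all C/EBPβ regions was 49.0%. The median distance was 4.42 kb with PU.1 and 6.59 kb without.

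The excess with the partner, 15.4 percentage points for PU.1 and 8.04 for C/EBPβ, was positive on all 19 autosomes. It ranged from 13.4 to 17.4 points for PU.1 and from 4.01 to 12.2 points for C/EBPβ. The C/EBPβ excess was 3.88 points with 2 kb in place of 5 kb. Within the 4 bins of region width defined above the excess was 10.1 to 13.4 points for PU.1. For C/EBPβ it was 3.46 to 4.61 points within bins. For both factors the excess was less in each of the 4 bins than in the list as a whole.

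**Figure D3:**
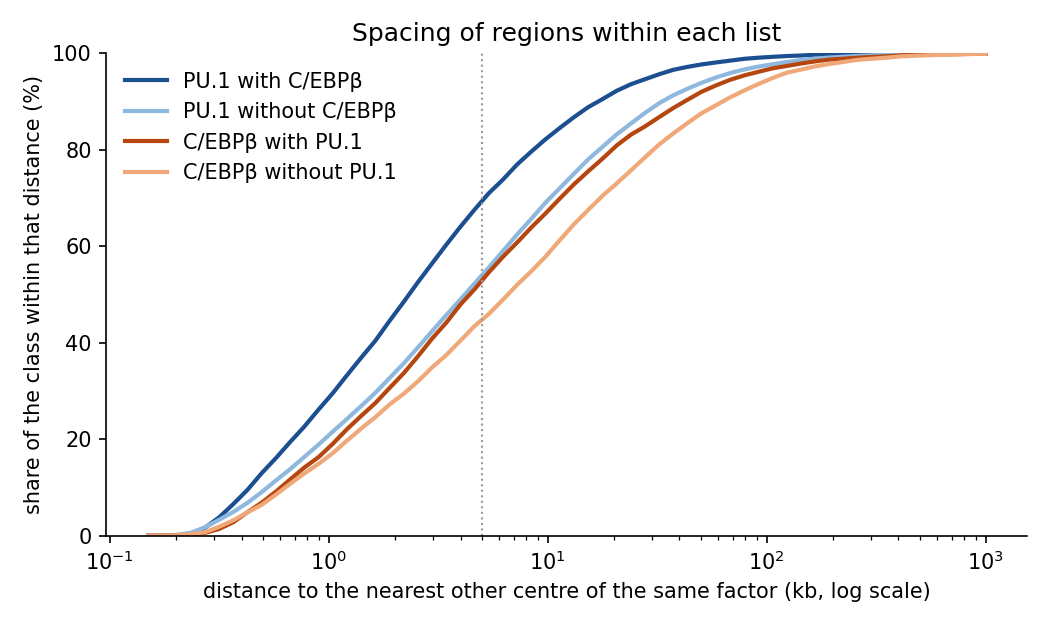
Distance from each region's centre to the nearest other centre of the same factor (x axis, kb on a log scale; y axis, percent of the class within that distance; the dotted line is at 5 kb). At 5 kb the curve of PU.1 with C/EBPβ stands at 69.3%, those of PU.1 without C/EBPβ and of C/EBPβ with PU.1 at 53.9% and 52.7%, and that of C/EBPβ without PU.1 at 44.7%.

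Regions of a list that overlap the same region of the other factor are close neighbours that both carry it by construction, so the spacing was also taken over neighbours at another bound place. Another PU.1 centre at another place lay within 5 kb of 67.6% of PU.1 regions with C/EBPβ, against 53.9% of those without and 57.8% of all PU.1 regions, an excess of 13.7 points (12.7 to 14.7) with C/EBPβ over without. For C/EBPβ the shares were 51.2% with PU.1, 44.7% without and 48.2% over all C/EBPβ regions, an excess of 6.51 points (5.25 to 7.78). Both excesses were positive on all 19 autosomes and in all 4 width bins. Within bins both were smaller than in the whole list, 1.86 to 2.82 points for C/EBPβ and 8.44 to 11.1 points for PU.1.

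The nearest such neighbour within 5 kb carried C/EBPβ for 37.6% of PU.1 regions with C/EBPβ (36.6 to 38.6) and for 30.3% of those without (29.7 to 31.0), against 32.8% over all PU.1 regions. It carried PU.1 for 58.4% of C/EBPβ regions with PU.1 (57.2 to 59.6) and for 52.4% of those without (51.0 to 53.7), against 55.8% over all C/EBPβ regions. The differences were 7.23 points for PU.1 (6.02 to 8.45) and 6.07 points for C/EBPβ (4.24 to 7.89). With neighbours at the same place counted, they were 12.7 and 8.52 points.

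Regions that did not overlap the other factor were often near it. Among PU.1 regions without C/EBPβ, 4.25% had a C/EBPβ centre within 0.5 kb, 11.3% within 1 kb, 35.7% within 5 kb and 50.2% within 10 kb. Among C/EBPβ regions without PU.1, the shares with a PU.1 centre at these distances were 8.51%, 21.8%, 57.1% and 72.9%. The median distance to the other factor was 9.91 kb from PU.1 regions without C/EBPβ and 3.56 kb from C/EBPβ regions without PU.1. These lists differ in length, and with the PU.1 list cut to the length of the C/EBPβ list the medians were 8.09 kb from PU.1 regions without C/EBPβ (7.79 to 8.43) and 7.64 kb from C/EBPβ regions without PU.1 (7.34 to 7.92).

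Clusters were formed by chaining bound places whose neighbouring centres lay within 5 kb. The 56217 places fell into 32072 chains, of which 11870 held 2 or more places and the largest held 23. Both factors at the same place became more frequent with the length of the chain, and PU.1 alone less frequent. Places standing by themselves carried both factors in 16.1% of cases and PU.1 alone in 64.7%. The share of places with both was 22.6% in chains of 2, 25.8% in chains of 3 or 4, 30.5% in chains of 5 to 9 and 31.5% in chains of 10 or more. PU.1 alone made up 57.7%, 53.4%, 49.3% and 47.3% of places over the same sizes. C/EBPβ alone stayed between 19.1% and 21.2% in chains of every size.

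By kind of place, 25.7% of the places with both factors stood by themselves (24.99 to 26.5), as did 40.4% of those with PU.1 alone (39.8 to 40.9) and 34.6% of those with C/EBPβ alone (33.8 to 35.5). Chains of 5 or more places held 24.98%, 15.6% and 18.7% of these kinds. A place with both factors was found in the same chain as 27.7% of the places with PU.1 alone and 32.8% of those with C/EBPβ alone. The other factor in any form was in the chain of 39.0% of the places with PU.1 alone and 58.6% of those with C/EBPβ alone. The PU.1 list is the longer, so these shares are not on a common footing. Values with lists of equal length are not given for chains. At least 1 place with both factors was held by 39.4% of chains of 2, 60.3% of chains of 3 or 4 and 85.5% of chains of 5 to 9. Of the 138 chains of 10 or more places, 135 (97.8%) held at least 1, and all 138 held both factors somewhere. With both factors at 22.5% of all places, a chain of more places holds such a place more easily by its size. These counts are therefore not read as a trait of long chains.

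Chaining single regions of both lists by the same 5 kb gave the chains with the most regions, which mixed all kinds. A chain of 41.9 kb on chromosome 1 at 192940226 to 192982129 held 19 PU.1 and 11 C/EBPβ regions. Of these, 7 PU.1 regions met C/EBPβ, and 27 of the 30 regions overlapped macrophage H3K9Ace. A chain of 37.0 kb on chromosome 6 at 87482773 to 87519758 also held 30 regions, 18 of PU.1 and 12 of C/EBPβ, with 10 of each overlapping the other factor and 22 in acetylated regions. The next, on chromosome 14 at 73893700 to 73930051, held 17 PU.1 and 8 C/EBPβ regions over 36.4 kb, 19 of them acetylated. The largest chains of a single factor held far fewer regions, and a chain of more regions holds both factors more easily by its size. The largest with PU.1 alone held 8 regions over 10.0 kb on chromosome 4 at 125752905 to 125762931, 6 of them acetylated. The largest with C/EBPβ alone held 4 regions over 10.9 kb on chromosome 3 at 136634975 to 136645909, 1 of them acetylated. Over all PU.1 and C/EBPβ regions the acetylated share was 44.5%. The counts in these few chains are not read as a trait of mixed or single-factor chains.

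Acetylation in macrophages was most frequent where both factors were bound. Of all PU.1 and C/EBPβ regions, 44.5% overlapped a macrophage H3K9Ace region. The share was 56.8% for PU.1 regions with C/EBPβ (7430 of 13080, 56.0 to 57.7), against 34.8% without (11270 of 32405, 34.3 to 35.3). For C/EBPβ it was 56.7% with PU.1 (7290 of 12856, 55.9 to 57.6), against 44.4% without (4960 of 11168, 43.5 to 45.3). The excess with the partner was 22.0 points for PU.1 (Newcombe interval 21.0 to 23.0) and 12.3 points for C/EBPβ (11.0 to 13.6). It was positive on all 19 autosomes, from 16.6 to 27.9 points for PU.1 and from 7.64 to 17.2 points for C/EBPβ.

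Between regions of a single factor, PU.1 without C/EBPβ was acetylated less often than C/EBPβ without PU.1, with a difference of -9.63 points (-10.7 to -8.58) that was negative on all 19 autosomes. The sign turned with the PU.1 list cut to its 24024 widest regions, which gave 0.534 points (-0.628 to 1.70), whereas the widest 50% of each list gave -10.4 points (-11.9 to -8.88).

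**Figure D4:**
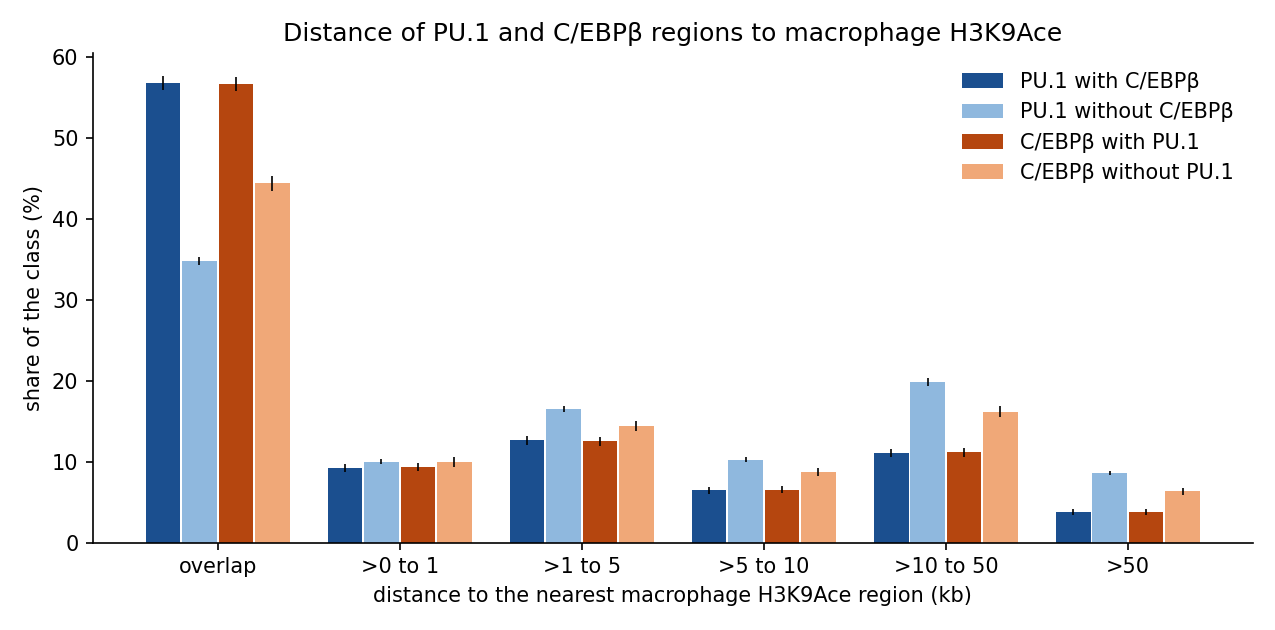
Share of each class of PU.1 and C/EBPβ regions by distance to the nearest macrophage H3K9Ace region (x axis, kb from edge to edge; y axis, percent of the class; error bars, 95% Wilson intervals). The classes with both factors, at 56.8% and 56.7%, exceed the classes of a single factor, at 34.8% and 44.4%, in the first group of bars, and lie below them in the bins from 1 kb outward.

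Regions outside acetylated chromatin were also closer to it where the partner was present. Among regions without overlap, the median distance from edge to edge was 4.83 kb for PU.1 with C/EBPβ (quartiles 1.29 and 15.2 kb), against 7.52 kb for PU.1 without it (2.14 and 23.7 kb). For C/EBPβ it was 4.90 kb with PU.1 (1.28 and 15.4 kb), against 6.58 kb without (1.75 and 20.3 kb). More than 50 kb from any macrophage H3K9Ace region lay 3.75% of PU.1 regions with C/EBPβ, against 8.60% without, and 3.79% of C/EBPβ regions with PU.1, against 6.33% without. The bin just outside, within 1 kb of an acetylated region, held much the same part of every class, between 9.27% and 10.0%. These shares and those beyond 50 kb are of whole classes, overlapping regions included. Among PU.1 regions without overlap, the bin held 1212 of 5650 with C/EBPβ and 3247 of 21135 without. Among C/EBPβ regions without overlap, it held 1196 of 5566 with PU.1 and 1111 of 6208 without. Regions free of the mark but with H3K9Ace within 1 kb on both sides were rare, between 0.768% and 0.925% of each class.

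Read from the mark outward, the share of PU.1 regions with C/EBPβ was 39.7% in acetylated regions (39.0 to 40.4) and 27.2% within 1 kb of one. It was then 23.6% at 1 to 5 kb, 20.3% at 5 to 10 kb, 18.3% at 10 to 50 kb and 15.0% beyond (13.8 to 16.2). The share of C/EBPβ regions with PU.1 ran over the same steps through 59.5%, 51.8%, 50%, 46.4%, 44.2% and 40.8% (38.0 to 43.6). Width moved along with distance, as the median PU.1 region measured 274 bp in acetylated regions and 206 bp beyond 50 kb, and the median C/EBPβ region 307 bp and 227 bp. Within bins of PU.1 width the acetylation excess with C/EBPβ was between 12.9 and 18.0 points, against 22.0 points in the whole list. Within bins of C/EBPβ width the excess with PU.1 was between 3.72 and 8.41 points, against 12.3 points in the whole list.

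Inside an acetylated region the classes took up like positions. The median acetylated region overlapped was 1800 bp wide for PU.1 with C/EBPβ, 1850 bp for PU.1 without it, 1750 bp for C/EBPβ with PU.1 and 1900 bp for C/EBPβ without it. Region centres lay a median of 450 bp inside the nearer edge for PU.1 with C/EBPβ (436 to 464), 439 bp for PU.1 without (431 to 448), 441 bp for C/EBPβ with PU.1 (428 to 456) and 472 bp for C/EBPβ without (457 to 496). Between 7.05% and 8.02% of each class had its centre outside the acetylated region that it touched.

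From the side of the mark, 6429 of 36757 macrophage H3K9Ace regions (17.5%, 17.1 to 17.9) held a place with both factors. PU.1 alone was the only kind in 6659 (18.1%) and C/EBPβ alone in 2633 (7.16%), while 925 (2.52%) held both factors at separate places only. The remaining 20111 (54.7%) met neither list. Median widths were 1600 bp with both factors at the same place, 2500 bp with both at separate places, 1400 bp with either factor alone and 850 bp with neither. Regions with neither factor therefore made up 39.8% of the 52.2 Mb covered. Places with both factors numbered 0.0933 per acetylated kb in the narrowest of 4 width bins of H3K9Ace regions and 0.120 in the next. They numbered 0.180 in the bin from 1050 to 1750 bp and 0.136 in the widest. Over the same bins PU.1 alone ran through 0.163, 0.1895, 0.246 and 0.221, and C/EBPβ alone through 0.0587, 0.0732, 0.108 and 0.104. Every kind of place was thus densest in the bin from 1050 to 1750 bp.

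The H3K9Ace region with the most places of both factors lay on chromosome 10 at 126990501 to 127004600. It was 14100 bp wide and held 8 such places, 2 regions of PU.1 alone and 2 of C/EBPβ alone. Next came a domain of 22400 bp on chromosome 7 at 142187751 to 142210150, with 5 such places, 5 regions of PU.1 alone and 2 of C/EBPβ alone. A domain of 12250 bp on chromosome 11 at 86392701 to 86404950 also held 5. All 3 overlapped adipocyte H3K9Ace as well. They belong to the widest bin of H3K9Ace regions (1750 to 22400 bp), and wide regions meet another list more easily. The share over all macrophage H3K9Ace regions is not given here, so the overlap is not read as a trait of these domains. In all, 5 H3K9Ace regions held exactly 5 such places.

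Adipocyte H3K9Ace, from a cell type for which no PU.1 or C/EBPβ list was used here, set the classes in another order. It overlapped 30.4% of all PU.1 and C/EBPβ regions. For PU.1 the share was 31.5% with C/EBPβ (4114 of 13080, 30.7 to 32.3), against 26.8% without (8674 of 32405, 26.3 to 27.2). For C/EBPβ it was 31.3% with PU.1 (4026 of 12856, 30.5 to 32.1), against 38.9% without (4339 of 11168, 37.9 to 39.8). C/EBPβ regions without PU.1 thus had the highest share, and the difference with minus without PU.1 was -7.54 points (-8.74 to -6.33), opposite in sign to that in macrophages. The PU.1 excess of 4.68 points varied with width. It was 9.45 points in the narrowest bin of PU.1 regions and -1.19 points (-2.92 to 0.545) in the widest, and 0.890 points (-0.298 to 2.08) with the PU.1 list cut to the length of the C/EBPβ list. In the widest 50% of each list it was 2.30 points. The C/EBPβ difference was negative in every bin, from -4.94 points in the narrowest to -15.3 points in the widest.

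Regions were then split by both marks. Acetylation in macrophages alone was found at 19.5% of all PU.1 regions and 23.5% of all C/EBPβ regions, and acetylation in both cell types at 21.6% and 27.5%. Acetylation in macrophages alone was found at 30.7% of PU.1 regions with C/EBPβ and 30.8% of C/EBPβ regions with PU.1. It was found at 15.0% of PU.1 regions without C/EBPβ and 15.2% of C/EBPβ regions without PU.1, a difference of -0.152 points (-0.931 to 0.611) between the last classes. Acetylation in both cell types was found at 26.1% of PU.1 regions with C/EBPβ and 25.9% of C/EBPβ regions with PU.1. There the single-factor classes differed from each other, with 19.8% of PU.1 regions without C/EBPβ and 29.2% of C/EBPβ regions without PU.1, a difference of -9.48 points (-10.4 to -8.54). The lower acetylation of PU.1 alone than of C/EBPβ alone in macrophages, with the lists at full length, thus lay among regions acetylated in both cell types.

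**Figure D5:**
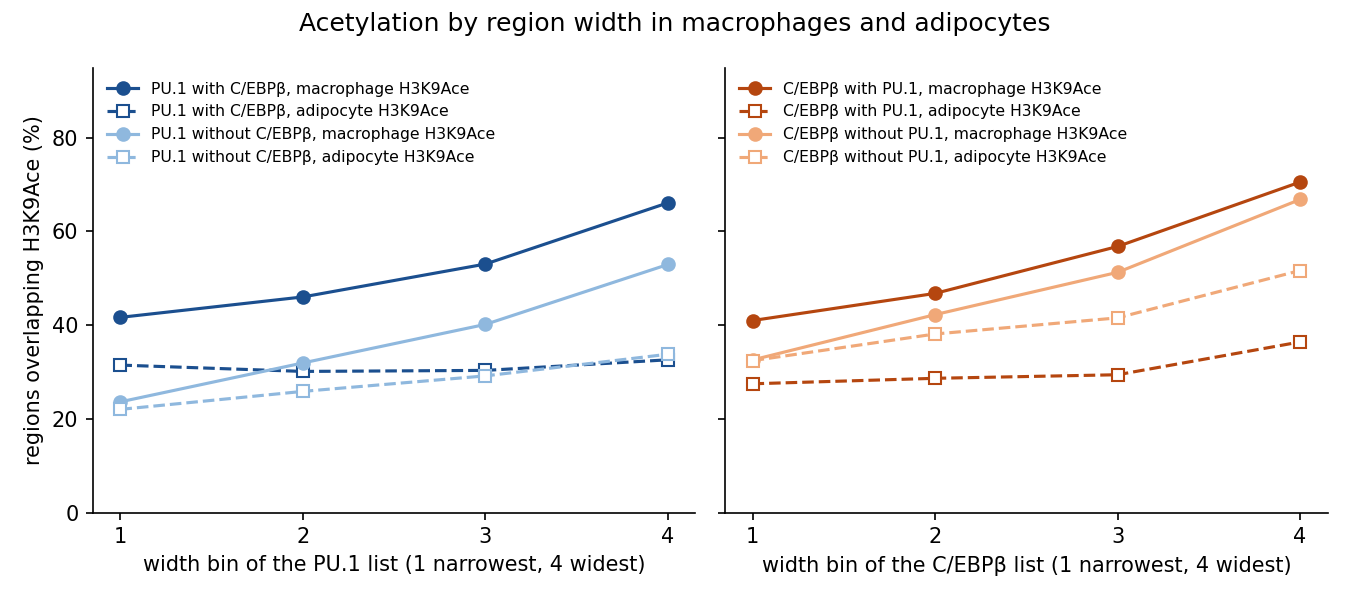
Share of PU.1 regions (left) and C/EBPβ regions (right) overlapping macrophage H3K9Ace (filled circles, solid lines) and adipocyte H3K9Ace (open squares, dashed lines), by bin of region width, 4 bins per list (x axis) and by presence of the other factor (y axis in percent). In macrophages the class with the partner lies above the class without it in all 4 bins of both lists. In adipocytes C/EBPβ with PU.1 lies below C/EBPβ without PU.1 in all 4.

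PPARγ, the nuclear receptor on which adipogenesis depends and which macrophages also express, was read from the lists deposited for it, where the macrophage data join 2 sequencing runs. The longer macrophage PPARγ list, with 18128 autosomal regions, overlapped 14.9% of all PU.1 and C/EBPβ regions. It overlapped 26.7% of PU.1 regions with C/EBPβ (25.9 to 27.4), against 6.58% of PU.1 regions without it (6.31 to 6.85). It overlapped 26.6% of C/EBPβ regions with PU.1 (25.8 to 27.3), against 11.6% of C/EBPβ regions without it (11.0 to 12.2). The final macrophage list met 3.58% of all regions. For PU.1 it met 7.05% of regions with C/EBPβ and 1.13% of regions without, and for C/EBPβ 7.02% where PU.1 was present and 2.66% where it was absent. The final adipocyte list met 0.909% of all regions and again set the classes of C/EBPβ the other way round, with 1.28% of C/EBPβ regions with PU.1 (1.10 to 1.49) and 1.92% of those without (1.68 to 2.19). For PU.1 regions it was 1.31% with C/EBPβ and 0.250% without. Regions with the partner were also wider, and the PPARγ shares were not taken within width bins or under the alternatives.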

How the data were processed

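Occupancy of PU.1, C/EBPβ and H3K9Ace in macrophages was read from deposited lists of regions, 1 library per target. Per the labels' protocols, reads of 36 bp were mapped by ELAND to mm8 with up to 2 mismatches, and reads without a single best position were dropped. Neither the region caller nor its settings nor the read totals are given in the sources used here. The series text states that areas of input bias were subtracted. The deposited PU.1, C/EBPβ and H3K9Ace lists give positions alone, and from the PPARγ lists positions alone were used. Starts of the macrophage H3K9Ace regions are all multiples of 50 bp apart, which sets the resolution of distances to them. The 20 repeated rows of adipocyte H3K9Ace were counted once. Coordinates of C/EBPβ and H3K9Ace were raised from 0-based to 1-based starts for printing, and PU.1 coordinates are as deposited.

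Overlaps, distances and chains were computed with Python 3.11.15, numpy 2.4.6 and pandas 2.3.3, on autosomes, and the code was tested on simulated lists. Regions that touch without overlap were given a distance of 1 bp. Shares carry Wilson intervals and differences of shares Newcombe intervals (scipy 1.17.1), and medians carry exact binomial intervals, all at 95%. Width bins hold 4 nearly equal parts of each list. Named regions are the 2 widest of each class and the 3 H3K9Ace regions with the most places of both factors. Named chains are the 3 with the most regions and, for each factor alone, the chain with the most regions. The class definitions, measures and this rule were chosen with earlier results of these data known. Alternatives changed the overlap rule, the merging of regions, the length of the lists, the chromosomes, the distance limits and the H3K9Ace list. Leaving out neighbours at the same place was chosen after seeing the data. No sequence or gene annotation in mm8 was used here.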

Additional observations from a re-analysis of the deposited data

Results flagged for a closer look

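The contrast of C/EBPβ regions with PU.1 against those without had opposite signs in the cell types. For H3K9Ace it was 12.3 percentage points in macrophages and -7.54 points in adipocytes. Within the 4 bins of C/EBPβ width the macrophage value was 3.72 to 8.41 points and the adipocyte value -15.3 to -4.94 points. With other overlap rules, list lengths, chromosomes and H3K9Ace lists the macrophage value lay between 9.26 and 16.4 points. For the final PPARγ lists it was 4.37 points in macrophages and -0.633 points in adipocytes, and these values were not taken within width bins. Each rests on 1 library per cell type, and the difference between the cell types was not tested. The adipocyte H3K9Ace contrast lay between -9.92 and -5.57 points over 6 alternatives added after seeing the data, the weakest with the PU.1 list cut to the length of the C/EBPβ list.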

How the results depend on the processing

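Of 70 recomputed values of 10 results, 34 stayed within the interval of the reported value, 35 moved outside it in the same direction, and 1 turned around. Overlap of at least 50% of the shorter region gave 27.6% of PU.1 and 51.9% of C/EBPβ regions shared and a median offset of 43.5 bp. With centres within 200 bp these were 27.1%, 51.0% and 42.5 bp. The C/EBPβ width excess was then 59 bp, the spacing excesses were 13.9 points (PU.1) and 6.11 (C/EBPβ), and the acetylation excesses 19.8 (PU.1) and 9.26 (C/EBPβ). Merging gaps of at most 200 bp gave width excesses of 100 bp (PU.1) and 71 bp (C/EBPβ), an offset of 49.5 bp and a PU.1 acetylation excess of 23.2 points. In the widest 50% of each list 54.3% of C/EBPβ regions were shared, with width excesses of 64 bp (PU.1) and 39 bp (C/EBPβ), an offset of 53 bp, and acetylation excesses of 20.4 (PU.1) and 10.2 (C/EBPβ) points. Cutting the PU.1 list to the length of the C/EBPβ list gave shares of 41.5% (PU.1) and 41.6% (C/EBPβ), width excesses of 49 bp (PU.1) and 78 bp (C/EBPβ) and an offset of 48 bp. Spacing excesses were then 12.3 (PU.1) and 11.2 (C/EBPβ) points and acetylation excesses 15.9 (PU.1) and 16.4 (C/EBPβ). There the acetylation of PU.1 alone minus C/EBPβ alone was 0.534 points, against -9.63 with the full lists, in a setting that drops narrow PU.1 regions and keeps narrow C/EBPβ regions. Within 2 kb the spacing excesses were 12.2 (PU.1) and 3.88 (C/EBPβ) points, and within 10 kb the PU.1 excess was 13.1. Counting neighbours at another place only, chosen after seeing the data, the spacing excesses were 13.7 (PU.1) and 6.51 (C/EBPβ) points. With H3K9Ace regions of at least 1000 bp only, acetylation excesses were 19.8 (PU.1) and 10.3 (C/EBPβ). Adding X and Y moved none of the 10 results outside its interval. No paired analysis was possible because each group holds 1 library. Depth is unknown, so a region missing from a list may lie below its threshold, and the length of each list depends on that unknown threshold.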

Other observations

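The sex chromosomes were left out of the comparisons above. On chromosome X, 144 of 866 PU.1 regions met C/EBPβ (16.6%, 95% Wilson interval 14.3 to 19.2), below the 26.0% of chromosome 12, the lowest autosome. From the other side 145 of 393 C/EBPβ regions met PU.1 (36.9%, 32.3 to 41.8), below the 49.4% of chromosome 13. The mice were male, so X and the autosomes differ in copy number, and its part in the lower shares was not tested. Chromosome Y held 5 PU.1 and 4 C/EBPβ regions, with 0 overlaps, too few to set beside the autosomes.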
